A study of Mus musculus with 4 samples.

Results

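Apoe, Apoc1, Apoc4, Lpl, Fabp5, Fabp3, Plin2, Abca1, Abcg1 and Ch25h carry, bind, store or export lipids, and these 10 genes were chosen by name for what they are known to do. All 10 were found among the 32285 genes of the count matrices. CD45+ cells, that is cells with the surface protein that marks leukocytes and microglia, were sorted live out of 2 brain regions, the thalamus and the hippocampus (HPC), in C57B6/J mice with cortical brain injury, and their mRNA was counted as unique molecular identifiers (UMIs) in single cells. Per the methods, the tissue came from the injured hemispheres, and equal numbers of cells from 4 mice were pooled for each region. Every animal carried the same injury and no uninjured sample was analysed here, so each comparison is between regions or between kinds of cells after injury. The labels give no age, sex or time after injury.

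Each region was run as 1 mRNA library with 1 library of multiplexing oligos, and what belongs to the region or to its library cannot be told apart. The cells were split by their oligo into 4 matrices per region, called sets here and numbered 1 to 4. A set was taken as 1 mouse, which the labels do not state, and p-values measure the spread between sets. The sets held 9789875 to 26636526 UMIs, and 24939 of 29190 cells were kept. A cell was called microglia-gated when it had UMIs of at least 5 of 11 microglial markers and, where it also passed the gate of another cell type, a clearly larger share of the microglial list, which gave 19276 cells, 8422 of the thalamus and 10854 of the HPC. Within them, a cell with at least 4 of 8 markers of disease-associated microglia (DAM: Cst7, Itgax, Csf1, Gpnmb, Axl, Cd9, Lgals3 and Spp1) was called DAM-gated (3068 cells), and a cell with at most 1 of these and at least 6 of 8 homeostatic markers such as P2ry12 and Tmem119 was called homeostatic-gated (7508 cells). No gate used any of the 10 genes. The limits of the gates were set after the marker counts were seen, and 2525 microglia-gated cells had 3 DAM markers, just under the gate, against 1366 with 4. P2ry12 fell from 21.2 UMIs per 10000 in homeostatic-gated to 7.49 in DAM-gated cells pooled over the sets, while Spp1 went from 0.018 to 76.0, as the gate required.

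Lipids move between cells of the brain on particles built around apolipoprotein E, which astrocytes and microglia make and which takes up cholesterol and phospholipid that the transporters ABCA1 and ABCG1 push out of the cell. Lipoprotein lipase cuts triglyceride to fatty acids, cytosolic fatty acid-binding proteins carry them inside the cell, and perilipin 2 coats the droplets in which surplus lipid is kept. Microglia that take up myelin or dying cells receive much cholesterol, and several of these genes are known as part of the DAM state. Abca1, Abcg1 and Apoe are also textbook targets of the liver X receptors, nuclear receptors that sense oxysterols, while cholesterol 25-hydroxylase, the product of Ch25h, makes one such oxysterol.

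In the mouse genome (GRCm38, GENCODE release 21 of the mouse annotation), the apolipoprotein genes lie side by side on the minus strand of chromosome 7, with Apoc4 at chr7:19678083-19681479, Apoc1 at chr7:19689481-19692660 and Apoe at chr7:19696109-19699188, all within 21106 bases. The other genes lie apart, Fabp5 at chr3:10012548-10016607, Abca1 at chr4:53030787-53159895, Plin2 at chr4:86648386-86670060, Fabp3 at chr4:130308595-130315463, Lpl at chr8:68880491-68907448, Abcg1 at chr17:31057675-31117988 and Ch25h at chr19:34473778-34475164. All 10 are protein-coding. Of these, Abca1 and Ch25h stood at the ends of the range in the comparison of DAM-gated with homeostatic-gated cells, with the smallest and the largest change. The 250 bases before the RefSeq start site of each (GRCm38.p6, minus strand, written 5′ to 3′ in the direction of the gene) are shown for that contrast, Abca1 from chr4:53159896-53160145 and Ch25h from chr19:34475149-34475398, with letters that match a searched motif in capitals.
Abca1: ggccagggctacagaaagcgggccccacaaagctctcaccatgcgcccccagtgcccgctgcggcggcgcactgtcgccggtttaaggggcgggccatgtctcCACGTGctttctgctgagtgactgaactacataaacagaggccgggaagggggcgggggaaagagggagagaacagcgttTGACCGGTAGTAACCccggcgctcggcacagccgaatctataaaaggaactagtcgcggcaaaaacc
Ch25h: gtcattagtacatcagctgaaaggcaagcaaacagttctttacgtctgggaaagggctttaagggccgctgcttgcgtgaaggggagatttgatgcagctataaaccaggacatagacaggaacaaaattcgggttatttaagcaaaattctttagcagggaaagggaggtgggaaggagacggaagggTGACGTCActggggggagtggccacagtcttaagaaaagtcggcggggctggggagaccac
The 3 motifs were chosen with these sequences in view and searched on both strands in windows from 250 bases before to 50 after each start: GGTNA repeated after 5 unspecified bases, a loose form of the direct repeat (DR4) that liver X receptors are known to bind, CACGTG, the E-box, and TGACGTCA, the cAMP response element. A promoter window was held for 6 of the 10 genes (Abca1, Plin2, Fabp3, Apoc4, Apoe and Ch25h), 8 windows in all since Apoe had 3. The repeat began 67 bases before the Abca1 start on the other strand, and 0.718% of 32851 promoters held it. The E-box stood 147 bases before the Abca1 start and 4 before that of Plin2 (7.15% of promoters), and the cAMP response element 61 bases before the Ch25h start (1.79%). A match describes these letters and is no evidence of binding.

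The first comparison set microglia-gated cells of the thalamus against those of the HPC. In this comparison 7 of the 10 genes were higher in the thalamus, Fabp3, Lpl, Ch25h, Fabp5, Apoc4, Apoc1 and Plin2, by 1.94-fold to 9.90-fold, and for each of these 7 every thalamus set lay above every HPC set. Apoe, Abca1 and Abcg1 did not pass the test. Of all 13126 genes tested, 8.34% were called higher and 4.56% lower in the thalamus, and 20.6% had sets that did not overlap between the regions. Higher genes were 64.7% of all calls, and 47.2% under scaling by library totals in place of TMM, which left the calls of the 10 genes as they were. The median log2 fold change was 2.12 over the 10 genes and -0.01 over all genes tested. Calls are from edgeR's quasi-likelihood test on UMIs summed per set, at a Benjamini-Hochberg adjusted p under 0.05, with 4 sets per region.

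Among the apolipoproteins, Apoe, the main lipid carrier, was at 333, 310, 179 and 288 UMIs per 10000 in thalamus sets 1 to 4 and at 290, 82.8, 35.0 and 115 in HPC sets 1 to 4. HPC set 1 was as high as the thalamus sets, and the other 3 HPC sets were below all of them. The means were 277 ± 68.0 and 131 ± 111 (SD, n = 4), and the log2 fold change of 1.12 ± 0.55 (SE) did not pass the test (edgeR, adjusted p = 0.2005). Without HPC set 1 it was 1.92, with an adjusted p of 0.00643 (edgeR).

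Apoc1, a small apolipoprotein known to inhibit lipid-transfer enzymes, was at 0.420, 0.657, 0.352 and 0.518 UMIs per 10000 in the thalamus and at 0.234, 0.105, 0.058 and 0.077 in the HPC. The regions did not overlap, and the gene was 4.01-fold higher in the thalamus (log2 2.00 ± 0.38, edgeR, adjusted p = 0.0104). Apoc4, its neighbour on chromosome 7, was at 0.275, 0.219, 0.136 and 0.261 against 0.101, 0.030, 0.0097 and 0.040. Its sets did not overlap either, at 4.69-fold (log2 2.23 ± 0.48, edgeR, adjusted p = 0.0166), and this call was lost when thalamus set 4, HPC set 2 or HPC set 4 was left out. In all 3 apolipoproteins the highest HPC value was that of set 1, and without it the fold was 6.21 for Apoc1 and 8.62 for Apoc4.

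Lpl, which encodes lipoprotein lipase, was at 3.02, 1.76, 2.58 and 2.997 UMIs per 10000 in the thalamus and at 0.745, 0.209, 0.208 and 0.327 in the HPC. Even the lowest thalamus set was above the highest HPC set, and the gene was 7.02-fold higher in the thalamus (log2 2.81 ± 0.41, edgeR, adjusted p = 0.00366), or 11.1-fold without HPC set 1. Both fatty acid-binding protein genes followed the same order. Fabp5 was at 2.12, 1.49, 0.966 and 1.36 in the thalamus against 0.530, 0.294, 0.150 and 0.294 in the HPC, 4.76-fold higher (edgeR, adjusted p = 0.0052). Fabp3, which is known from heart and muscle and was rare here with 557 UMIs in microglia-gated cells of the thalamus, was at 0.201, 0.074, 0.1001 and 0.128 against 0.020, 0.0099, 0.0064 and 0.014. It had the largest of the 10 changes, 9.90-fold (log2 3.31 ± 0.40, edgeR, adjusted p = 0.00173).

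Plin2, the droplet coat protein gene, was at 0.759, 0.557, 0.507 and 0.558 UMIs per 10000 in the thalamus and at 0.421, 0.293, 0.254 and 0.302 in the HPC. It was separated by region as well, but by less, at 1.94-fold (log2 0.95 ± 0.19, edgeR, adjusted p = 0.0119). Ch25h was at 0.491, 0.244, 0.277 and 0.341 against 0.128, 0.042, 0.015 and 0.029, a 5.93-fold difference (log2 2.57 ± 0.50, edgeR, adjusted p = 0.0109). HPC set 1 was the highest HPC set here too, and without it the difference was 11.7-fold.

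The efflux transporters did not follow the others. Abca1, which loads lipid onto poor apolipoprotein E particles, was at 5.90, 5.45, 4.72 and 5.27 UMIs per 10000 in the thalamus and at 8.10, 5.55, 5.25 and 5.64 in the HPC. The regions overlapped, with the highest value in HPC set 1, and the log2 fold change was -0.15 ± 0.16 (edgeR, adjusted p = 0.552). Abcg1, which passes cholesterol to fuller particles, was at 1.68, 1.21, 1.15 and 1.36 against 2.20, 1.17, 1.13 and 1.35. Apart from HPC set 1 its values were nearly the same in both regions, with a log2 fold change of -0.07 ± 0.23 (edgeR, adjusted p = 0.866).

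The makeup of the microglia-gated cells moved with the region. DAM-gated cells made up 46.0, 24.4, 20.7 and 29.8% of them in thalamus sets 1 to 4 and 7.49, 2.76, 1.42 and 3.43% in HPC sets 1 to 4. Microglia-gated cells with under 40 UMIs of Malat1, a nuclear RNA, per 10000 were 4.31 to 14.1% in the thalamus and 0.152 to 1.80% in the HPC, and the summed level of 5 astrocyte markers was 2.17 to 2.66 UMIs per 10000 in the thalamus against 3.11 to 3.75 in the HPC. Markers of neurons (3 genes) reached at most 0.03 UMIs per 10000 in any set. The part of RNA quality or of RNA from other cells in these differences was not tested.

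**Figure D1:**
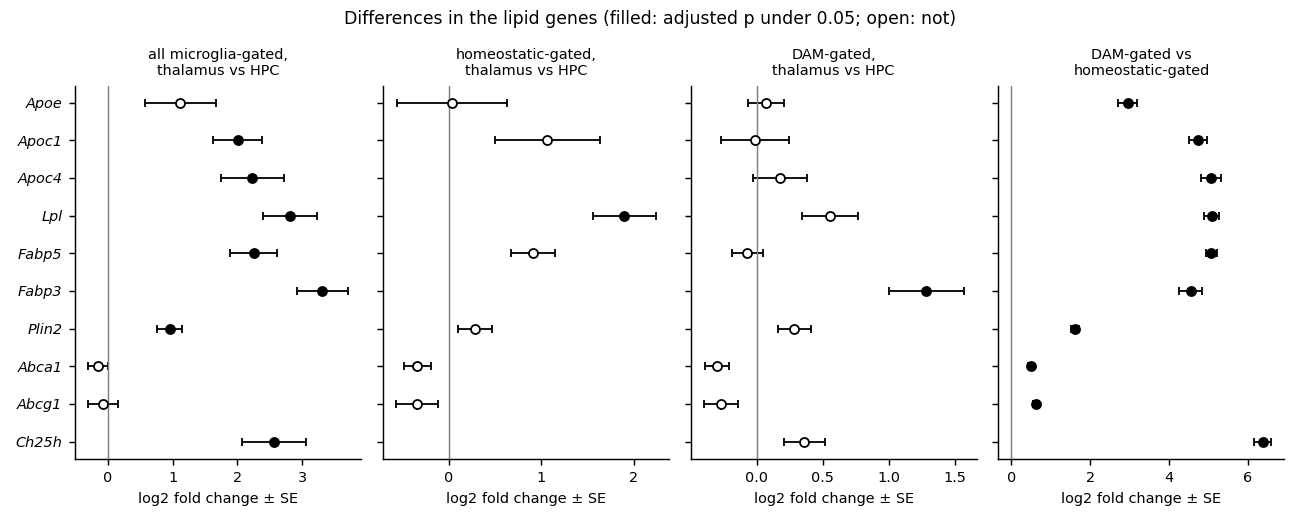
Log2 fold change of each gene with its standard error in 4 comparisons: thalamus against HPC in microglia-gated, homeostatic-gated and DAM-gated cells, and DAM-gated against homeostatic-gated cells of the same sets. Filled points passed edgeR's quasi-likelihood test at an adjusted p under 0.05: 7 genes in all microglia-gated cells, Lpl alone in homeostatic-gated cells, Fabp3 alone in DAM-gated cells and all 10 between the states.

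DAM-gated cells were then set against homeostatic-gated cells of the same 8 sets. All 10 genes were higher in DAM-gated cells, from 1.40-fold for Abca1 to 82.9-fold for Ch25h, where 21.5% of the 10439 genes tested were called higher. The adjusted p ran from 8.03e-19 to 2.34e-06 (edgeR's quasi-likelihood test with the set as a block and sums of 8 sets in each state). The median log2 fold change was 4.64 for the 10 genes against -0.003 for all genes tested. All 10 passed in every alternative that was run, except that Fabp3 had too few counts to be tested when clusters replaced the gates. A scaling by library totals in place of TMM lowered the median of all genes by 0.166 on the log2 scale and took the share of higher calls among all calls from 54.8% to 28.6%, and the 10 genes remained higher, Abca1 at 0.32 and Abcg1 at 0.45. DAM-gated cells had a median of 6152.5 UMIs per cell and homeostatic-gated cells 4480.5. The gate counts detected markers, so it takes deeper cells more readily, and the 10 genes were also higher when the states were gated after every cell was thinned to the same number of UMIs.

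Apoe was at 468 ± 76.8 UMIs per 10000 in DAM-gated and 87.0 ± 68.6 in homeostatic-gated cells (SD, n = 8 sets), 7.72-fold higher in the fit (log2 2.95 ± 0.24). Its lowest DAM-gated set, at 354, was above its highest homeostatic-gated set, at 230. Apoc1 rose from 0.051 ± 0.029 to 1.09 ± 0.354 (log2 4.74 ± 0.22) and Apoc4 from 0.020 ± 0.019 to 0.426 ± 0.121 (log2 5.06 ± 0.26). For both, every set was higher in its DAM-gated than in its homeostatic-gated cells, as it was for 9 of the 10 genes. The same count was not made over all genes tested.

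Lpl rose from 0.218 ± 0.163 to 5.17 ± 1.77 UMIs per 10000 (33.9-fold) and Fabp5 from 0.126 ± 0.048 to 3.42 ± 0.533 (33.7-fold). Fabp3 went from 0.0091 ± 0.0073 to 0.201 ± 0.101 and Ch25h from 0.0088 ± 0.0068 to 0.666 ± 0.186. These 2 genes were almost absent from homeostatic-gated cells, with 23 and 26 UMIs over 7508 cells and 1 set at 0 each, so their fitted folds of 23.3 and 82.9 depend on few counts. In the 3068 DAM-gated cells the counts were 519 and 1464. With cells thinned to the same depth, 0.46 and 0.23% of thalamus homeostatic-gated cells had a UMI of Fabp3 and Ch25h, against 0.61 and 0.54% of T or NK cells. In the HPC these shares were 0.10 and 0.17% against 0.09 and 0%.

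Plin2 rose 3.07-fold, from 0.299 ± 0.067 to 0.838 ± 0.144 UMIs per 10000. The transporters rose least. Abca1 was at 6.64 ± 0.945 in DAM-gated and 5.32 ± 1.104 in homeostatic-gated cells, higher in 8 of 8 sets (log2 0.48 ± 0.07), and Abcg1 at 1.69 ± 0.365 and 1.26 ± 0.373, higher in 7 of 8 sets (log2 0.62 ± 0.08). Their ranges over sets overlapped between the states, unlike those of the other 8 genes, and the difference was seen within sets. Overlap between the states was not counted over all genes tested, of which 39.2% were called in either direction.

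Because DAM-gated cells were more frequent in the thalamus, their share of each gene's UMIs was counted. In the thalamus DAM-gated cells held 38.3% of all microglial UMIs, but 86.4% of those of Fabp3, 85.1% of Ch25h, 84.1% of Fabp5, 82.3% of Lpl, 76.8% of Apoc4, 74.1% of Apoc1, 63.4% of Apoe and 58.8% of Plin2. In the HPC they held 5.87% of all UMIs and still 57.8% of those of Ch25h, 56.8% of Fabp5 and 55.6% of Lpl. Abca1 and Abcg1 UMIs were spread nearly as all UMIs were, with 42.8% and 45.5% in DAM-gated cells of the thalamus and 7.00% and 7.96% in those of the HPC.

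The regions were next compared within each state. In homeostatic-gated cells, where 0.469% of the 11299 genes tested were called, 0.407% higher and 0.062% lower in the thalamus, and 8.31% had sets that did not overlap, 7 of the 10 genes had counts enough to be tested and Lpl alone was called, as higher. It was at 0.527, 0.314, 0.299 and 0.247 UMIs per 10000 in the thalamus against 0.157, 0.057, 0.071 and 0.068 in the HPC. Every thalamus set was above every HPC set, at 3.72-fold (log2 1.90 ± 0.34, edgeR, adjusted p = 0.0286), but the call was lost in 8 of the alternatives run, when any 1 set other than HPC set 1 was left out and when states were gated after thinning (log2 1.69 to 2.34 with 1 set left out). With cells thinned to the same depth, 6.89% of thalamus and 1.82% of HPC homeostatic-gated cells had a UMI of Lpl. In T or NK cells, which are not known to make Lpl, the shares were 2.72% and 0.352%, also higher in the thalamus. The part of RNA from other cells in the Lpl difference between homeostatic-gated cells was not tested. At an unadjusted p under 0.05 in either direction (edgeR), 3 of the 7 genes tested passed, beside 10.9% of all genes tested. For Apoc4, Fabp3 and Ch25h, with 38, 23 and 26 UMIs in homeostatic-gated cells, the counts were too few to be tested between regions. Apoc4 was at 0.0245, 0.0599, 0.0152 and 0.0274 UMIs per 10000 in the thalamus and at 0.0167, 0.0041, 0.0015 and 0.0070 in the HPC, with 3 of the 4 thalamus sets above every HPC set, on 1 to 11 UMIs per set. At thinned depth 0.54% of thalamus and 0.10% of HPC homeostatic-gated cells had a UMI of Apoc4, against 0.68 and 0.26% of T or NK cells.

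Apoe in homeostatic-gated cells was at 141, 82.8, 47.8 and 85.9 UMIs per 10000 in the thalamus and at 230, 37.8, 21.4 and 49.9 in the HPC. HPC set 1 was the highest of all 8 sets and the other 3 HPC sets were at the low end, so that the log2 fold change was 0.04 ± 0.60 (edgeR, adjusted p = 0.9996) and 1.31 without that set, where it passed the test (adjusted p = 0.00201, edgeR). Without HPC set 1, 4 of the 10 genes were called higher, beside 382 of all genes. Abca1 was at 5.51, 4.93, 4.35 and 4.13 against 7.76, 5.32, 5.197 and 5.33, with only 1 thalamus set inside the HPC range and a log2 fold change of -0.34 that did not pass the test (edgeR, adjusted p = 0.422).

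In DAM-gated cells, with 2613 cells in the thalamus and 455 in the HPC, of which only 28 in HPC set 3, most of the calls between regions were lost. Of the 10 genes 1 was called higher in the thalamus, beside 1.2% of the 10419 genes tested, and 0 were called lower (0.739%). This was Fabp3, at 0.345, 0.191, 0.286 and 0.297 UMIs per 10000 in the thalamus and at 0.098, 0.178, 0.058 and 0.153 in the HPC. The HPC values rested on only 19, 11, 1 and 7 UMIs in sets 1 to 4. With 3 UMIs, HPC set 3 would have stood at 0.175. The regions did not overlap, by a narrow gap, at 2.44-fold (log2 1.29 ± 0.28, edgeR, adjusted p = 0.0242), and the call was lost in 6 of the alternatives run. DESeq2 called 0 of the 10 genes and gave Fabp3 no adjusted p. Without HPC set 1, thalamus set 4 or both sets numbered 1 the number of the 10 genes called was 0. At an unadjusted p under 0.05 in either direction (edgeR), 5 of the 10 passed, beside 13.5% of all genes tested. Of the 10 log2 fold changes, 6 were positive and 4 negative.

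Lpl in DAM-gated cells was at 4.76, 4.42, 7.80 and 6.64 UMIs per 10000 in the thalamus and at 4.06, 2.43, 6.84 and 4.42 in the HPC, with overlap and a log2 fold change of 0.55 ± 0.21 (edgeR, adjusted p = 0.243). Apoe was at 473 ± 77.9 and 463 ± 87.3 (SD, n = 4), Fabp5 at 3.30 ± 0.398 and 3.54 ± 0.682, and Apoc1 at 1.04 ± 0.405 and 1.13 ± 0.352, with log2 fold changes of 0.07 ± 0.14, -0.07 ± 0.12 and -0.01 ± 0.26. Abca1 was lower in every thalamus set (6.06, 6.23, 4.97 and 6.28) than in every HPC set (7.81, 7.73, 7.07 and 6.96), which 9.16% of all genes tested matched in either direction. Its log2 fold change of -0.30 ± 0.09 did not pass the test (edgeR, adjusted p = 0.117).

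A test of the difference itself asked whether the change from homeostatic-gated to DAM-gated cells differed between the regions. It called 16 of 10439 genes (0.153%, 62.5% of them with the larger change in the thalamus, or 42.1% under library-total scaling) and 0 of the 10 (edgeR). The log2 difference was -0.97 for Fabp5, -1.24 for Lpl and -1.66 for Apoc4, each toward a smaller change in the thalamus, with adjusted p of 0.186, 0.201 and 0.424 over all genes (edgeR). At an unadjusted p under 0.05, 3 of the 10 passed, beside 6.59% of all genes tested, and DESeq2 called 0 of the 5 genes to which it gave an adjusted p. Without HPC set 1, 5 of the 10 were called (Apoe, Apoc1, Apoc4, Lpl and Fabp5), all with the smaller change in the thalamus, while the calls among all genes went from 16 to 102.

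**Figure D2:**
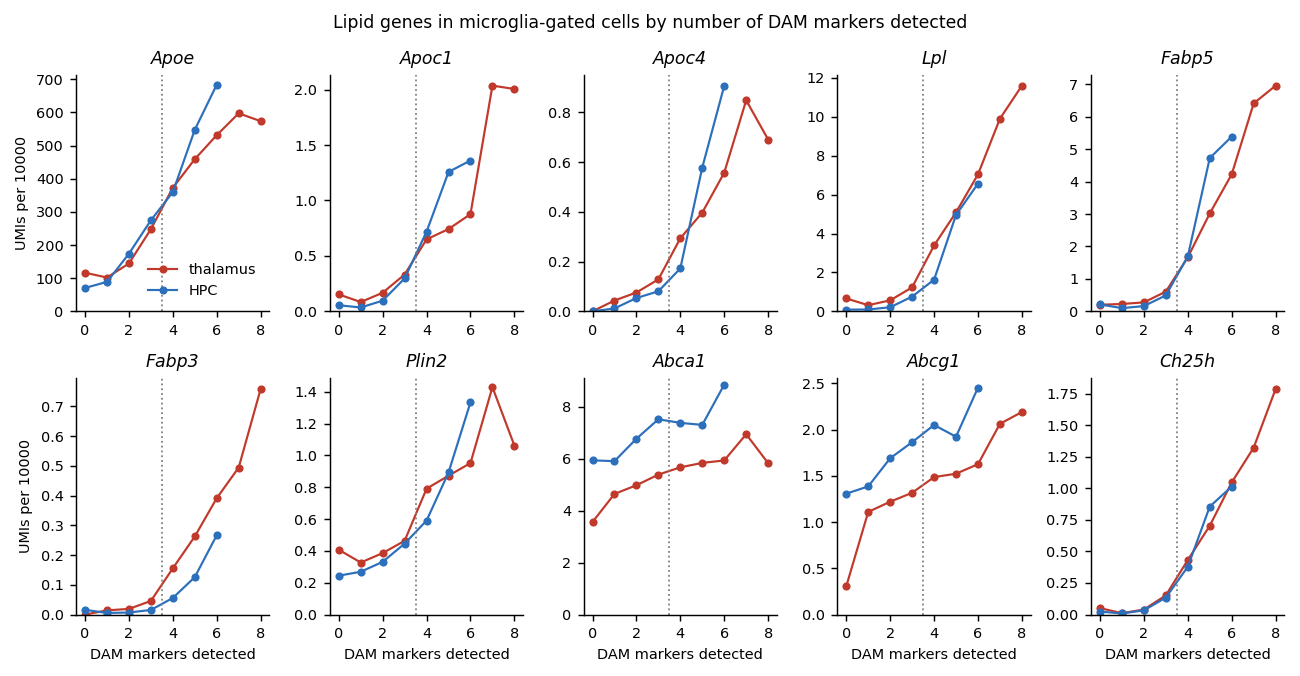
Level of each gene (UMIs per 10000) in microglia-gated cells by the number of DAM markers detected in the cell, with a line for each region over its sets pooled. Apoe of the thalamus goes from 117 at 0 markers to 597 at 7, and Abca1 of the HPC lies above that of the thalamus at every number of markers.

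The levels also followed the number of DAM markers below and above the gate. In pooled thalamus cells Apoe was at 102 UMIs per 10000 with 1 marker, 144 with 2, 248 with 3, 373 with 4, 459 with 5 and 531 with 6, and in HPC cells at 88.9, 174, 275, 360, 547 and 683. In both regions the level rose at each of these steps, from 1 marker to 6. HPC set 1 stood apart at low numbers of markers, with Apoe at 239 in its cells with 0 or 1 marker, where the other HPC sets were at 23.5 to 59.3, and at 272 in those with 2 markers, where the others were at 33.6 to 136. Lpl of the thalamus went from 0.318 with 1 marker to 1.23 with 3 and 7.04 with 6, and Lpl of the HPC from 0.096 to 0.756 and 6.56. At a low number of markers Lpl was higher in the thalamus, and at 5 markers it was at 5.09 and 4.95.

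Abca1 rose little with the markers, from 4.64 with 1 to 5.93 with 6 in the thalamus and from 5.91 to 8.86 in the HPC, and Abcg1 went from 1.11 to 1.63 and from 1.39 to 2.45. Deeper cells show more markers, so these slopes are a description and the part of depth in them was not tested.

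As a description with no test, each set's level was recomputed with 1 common mix of cells by DAM markers, in which cells with 0 or 1, 2, 3, and 4 or more markers held 39.2, 26.7, 13.8 and 20.4% of UMIs. The ratio of thalamus to HPC means fell from 4.11 to 1.08 for Apoc1, from 2.12 to 1.08 for Apoe, from 4.69 to 1.07 for Fabp5 and from 1.87 to 1.197 for Plin2. Those of Lpl (6.95 to 1.56), Ch25h (6.30 to 1.45) and Apoc4 (4.91 to 1.41) kept some distance from 1, but their sets came to overlap. Fabp3 alone kept thalamus sets above all HPC sets, with a ratio of 2.39. Abca1 moved the other way, its ratio going from 0.869 to 0.796, and its sets came apart, at 4.65 to 5.65 in the thalamus and 5.68 to 8.06 in the HPC. Some of these means lean on 1 set. Under the common mix Apoe was at 241, 250, 149 and 210 in the thalamus and at 309, 165, 107 and 205 in the HPC, highest in HPC set 1. The highest HPC value of Apoc1, 0.396, was that of set 3, which had 28 DAM-gated cells with 27 Apoc1 UMIs.

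The share of microglia-gated cells with at least 1 UMI of a gene was compared after each cell was thinned to 2500 UMIs, which left out 679 shallower cells of the thalamus (8.06%) and 473 of the HPC (4.36%). Lpl was seen in 26.9, 15.9, 18.6 and 22.4% of thalamus cells and in 6.99, 2.88, 2.06 and 3.37% of HPC cells, a difference of 17.1 percentage points. In T or NK cells, which are not known to make Lpl, 2.72% of thalamus and 0.352% of HPC cells had a UMI at the same depth. The regions did not overlap for 8 of the 10 genes, and each of these had the smallest p that 4 sets against 4 can give (two-sided exact permutation test over 70 assignments, p = 0.0286, adjusted over the 10 genes 0.0357). Only the 10 genes were compared in this way, so no share over all genes stands beside this count.

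The share was higher in the thalamus by 3.70 percentage points for Apoc1, 3.51 for Ch25h, 2.80 for Apoc4 and 2.33 for Fabp3, all of which were seen in 1.63% or fewer of the T or NK cells of either region. Homeostatic-gated cells of the thalamus had these 4 in 1.68, 0.23, 0.54 and 0.46%, against 1.63, 0.54, 0.68 and 0.61% of T or NK cells. In the HPC the shares were 0.69, 0.17, 0.10 and 0.10% against 0.35, 0, 0.26 and 0.09%. The part of RNA from other cells in the homeostatic-gated levels of these genes was not tested. Abca1 was seen in fewer thalamus cells, 68.0, 66.5, 61.6 and 63.3% against 81.4, 69.1, 69.6 and 69.1%, and this was the 1 of the 8 genes that was lower, with a difference of -7.45 points, or -4.42 points without HPC set 1. The unthinned means were 78.2% and 86.0%. Fabp5 (15.6% against 4.11%) and Plin2 (11.6% against 7.06%) were seen in T or NK cells more often (Fabp5 in 16.1 and 17.9%, Plin2 in 13.4 and 9.85%). Homeostatic-gated cells had a UMI of Fabp5 in 4.06 and 1.87% and of Plin2 in 7.73 and 6.12%, less often than T or NK cells. T or NK cells therefore do not give the level of RNA from other cells for these 2 genes, and no difference is read from their shares. Apoe UMIs were in 98.4% and 95.6% of microglia-gated cells but also in 96.4 and 86.5% of T or NK cells, and say nothing about which cells make it. Abcg1 was seen in 25.7% and 28.1% (exact permutation test, p = 0.686).

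Across the gated cell types some genes were highest in DAM-gated cells and others were as high in leukocytes other than microglia. Apoe was at 468 ± 76.8 UMIs per 10000 in DAM-gated cells, 258 ± 115 in microglia with MHC class II markers, 150 ± 87.5 in those with interferon markers, 87.0 ± 68.6 in homeostatic-gated cells, 80.8 ± 28.0 in monocytes (4 sets), 22.7 ± 13.2 in neutrophils (6 sets) and 15.8 ± 7.82 in T or NK cells (8 sets). The spreads of homeostatic-gated cells and monocytes overlapped, as did those of neutrophils and T or NK cells, but these means rest on unlike sets. The monocyte sets were thalamus sets 1, 2 and 4 and HPC set 1, with homeostatic-gated Apoe at 141, 82.8, 85.9 and 230. Classes were not compared within sets. Border macrophages, of which there were 30 in the thalamus and 35 in the HPC and no set with 20, had pooled levels of 493 and 460, in the range of DAM-gated cells.

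Lpl was at 5.17 ± 1.77 in DAM-gated cells and at 0.911 ± 0.984 in the next named type, microglia with MHC class II markers, and Ch25h at 0.666 ± 0.186 against 0.098 ± 0.090 in that same type. Apoc1, Apoc4 and Fabp3 were also highest in DAM-gated cells among the named types. Abca1 was a gene of microglia in every state, at 5.13 to 6.64 in the 4 named states, against 1.57 ± 0.475 in monocytes, 1.39 ± 0.449 in neutrophils and 0.239 ± 0.115 in T or NK cells. Of all Abca1 UMIs in kept cells, microglia-gated cells held 94.6% in the thalamus and 95.9% in the HPC.

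Fabp5, Plin2 and Abcg1 were shared with other leukocytes. Here too the monocyte means rest on 4 sets, the neutrophil means on 6 and the others on 8. Fabp5 was at 3.60 ± 2.19 UMIs per 10000 in monocytes and 3.42 ± 0.533 in DAM-gated cells, which did not differ beyond their spread, then at 1.26 ± 0.785 in neutrophils and 0.836 ± 0.194 in T or NK cells, and microglia-gated cells held 66.6% of its UMIs in the thalamus and 47.3% in the HPC. Plin2 was at 2.22 ± 1.53 in monocytes, 1.02 ± 0.247 in neutrophils and 0.838 ± 0.144 in DAM-gated cells. The standard deviations overlapped, but the lowest monocyte set, at 1.21, was above the highest DAM-gated set, at 1.01. Abcg1 was at 2.22 ± 0.707 in neutrophils, 1.74 ± 0.339 in monocytes and 1.69 ± 0.365 in DAM-gated cells, without a difference beyond the spread.

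The other genes of lipid handling, a list of 32 with uptake receptors, lysosomal lipid enzymes, droplet lipases and lipid-sensing receptors, moved less evenly. Between DAM-gated and homeostatic-gated cells 25 could be tested, of which 13 were higher and 6 lower (edgeR, against 21.5% and 17.7% of all genes), with a median log2 fold change of 0.26. Among those higher were Cd36, a scavenger receptor for fatty acids and oxidized lipoproteins (log2 4.77), Apoc2, the cofactor of lipoprotein lipase and neighbour of Apoc4 (3.81), Nceh1, a cholesterol ester hydrolase (2.13), Pltp, the phospholipid transfer protein (2.08), Plin3, a droplet coat protein (1.41), Lipa, the lysosomal acid lipase (1.16), Npc2, which carries cholesterol out of lysosomes (1.04), and Soat1, which esterifies cholesterol (0.90), and by less Psap, Ppard, Npc1 and Lrp1 (0.54, 0.34, 0.22 and 0.16). Lower were the transporter Abca9 (-1.03), the lipases Mgll (-0.95), Pnpla2 (-0.51) and Lipe (-0.50), the fatty acid-activating enzyme Acsl1 (-0.39) and Mylip, a ubiquitin ligase (-0.35). Under scaling by library totals 10 were higher and 6 lower, and Ppard, Npc1 and Lrp1 no longer passed (0.18, 0.06 and -0.003).

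Between the regions, in microglia-gated cells, 27 of the 32 were tested, with 5 higher in the thalamus (Cd36 by 1.54 on the log2 scale, Clu, which encodes clusterin, a lipid-binding chaperone, by 1.35, Nceh1 by 1.02, Plin3 by 0.99 and Npc2 by 0.50) and 1 lower, Abca9 at -0.39 (edgeR, adjusted p 0.00259 to 0.0426). Of all genes tested in this comparison 8.34% were higher and 4.56% lower. Under scaling by library totals 5 were higher and 3 lower. Within homeostatic-gated cells 0 of 24 were called by edgeR and 0 by DESeq2, where edgeR called 0.469% of all genes, and 1 of the 24 had an unadjusted p under 0.05 (10.9% of all genes). Within DAM-gated cells 0 of 25 were called by edgeR and 1 by DESeq2, where edgeR called 1.94% of all genes, and 4 of the 25 had an unadjusted p under 0.05 (13.5% of all genes).

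Members were also compared with one another over 24 sums (8 sets, each with homeostatic-gated, DAM-gated and remaining microglia), as a description in which the sums share libraries and the DAM gate. Pearson's r of log2(CPM + 1) was 0.877 between Abca1 and Abcg1, and 0.444 to 0.738 between either of these and the other 8 genes. Among those 8 it was 0.795 to 0.969, highest between Apoc1 and Fabp5. The genes outside the 10 with the pattern most like each were Fgr (0.976), Cd72 and Sash1 for Apoe, Lilrb4a (0.979), Fth1 and Gas7 for Apoc1, Igf1 (0.975), Myo5a and Glipr1 for Lpl, Aldoa (0.984), Gpi1 and Pkm for Fabp5, Lrpap1 (0.978), Pkm and Tpd52 for Plin2, Lrmda (0.931), Rps29 and Rpl26 for Abca1, and C3 (0.901), Rpl22l1 and Atp13a2 for Abcg1.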

How the data were processed

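The deposited files are UMI counts per gene and cell, unnormalized, which the authors made with Cell Ranger from reads aligned to mm10. The matrix headers name version 7.1.0, whereas the methods name an earlier one. The 8 matrices (4 per region) were used. Cells with 200 to 7500 genes and at most 2% mitochondrial UMIs were kept, the limits of the study. No doublet caller was run, since the oligo assignment of Cell Ranger leaves out cells with more than 1 oligo, and cells past several gates (571) were left out of every class. Doublets of cells with the same oligo can remain. The 12 multiplexing oligos (14.3% of UMIs) were left out of all totals. No barcode was shared by matrices of 1 region, and 65 were found in both.

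Marker lists gated cells as described in the report, with 1 marker not analysed here, a lead of 1.5 times over other classes and limits set after marker counts, not the values of the 10 genes, were seen. Levels are UMIs per 10000 UMIs of the cells named. Against Leiden clusters (scanpy 1.11.5), 94.5% of microglia-gated cells lay in microglial clusters and 58.5% of DAM-gated cells in clusters led by DAM markers. Counts summed per set were tested with edgeR 4.0.16 in R 4.3.3 (TMM, filterByExpr, quasi-likelihood F-test, Benjamini-Hochberg over all genes tested), and shares of cells by exact permutation in scipy 1.17.1. Intervals for shares are exact binomial ones at 95%. The procedures were first tested on simulated data with known changes.

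The text names all 10 genes whatever their values, the called genes of the 32 others of lipid handling (1 is not reported here), and for each of the 10 with at least 20 CPM the 3 genes of highest correlation. The genes, lists and gates were chosen with earlier results of these data known. Alternatives were DESeq2 1.42.0, no filter, a mitochondrial limit of 5%, clusters in place of gates, a stricter DAM gate (5 markers), leaving out the 5% deepest cells, Malat1-poor cells or each set in turn, and the set number as a block. Gating after thinning, scaling by library totals and leaving out both sets numbered 1 were added after seeing the data. Intervals and depth limits cover counting error only.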

Additional observations from a re-analysis of the deposited data

Results flagged for a closer look

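In 60 groups of 4 sets (10 genes, 2 regions and 3 kinds of cells), 7 values stood so far from the other 3 that the gap passed Dixon's 95% limit for the group's range, which chance passes in about 1 of 20 groups. HPC set 1 gave 6 of them. In homeostatic-gated cells its Apoe level was 230 UMIs per 10000 where the other HPC sets were at 21.4 to 49.9, its Apoc1 0.0787 (others 0.0139 to 0.0214), its Lpl 0.157 (others 0.057 to 0.071), its Abca1 7.76 (others 5.197 to 5.33) and its Abcg1 2.11 (others 1.09 to 1.26). In all microglia-gated cells its Abca1 was 8.10 (others 5.25 to 5.64). HPC set 1 was the highest HPC set for 10 of the 10 genes in homeostatic-gated cells, and for 2 of the 10 in DAM-gated cells. Thalamus set 1 was the highest thalamus set for 9 of the 10 in microglia-gated, 5 in homeostatic-gated and 3 in DAM-gated cells. HPC set 1 had 80.5% of its cells kept against 92.9 to 95.6% in the other HPC sets. It also had 829 T or NK cells, 415 neutrophils and 57 B or plasma cells, more than any other HPC set, and whether these bear on its levels was not tested. The remaining value was Abca1 in DAM-gated cells of thalamus set 3, at 4.97 UMIs per 10000 against 6.06 to 6.28 in the other thalamus sets.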

How the results depend on the processing

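Of 1181 values under the alternatives, 983 were labelled as the same. For fold changes and shares this meant the same direction and side of the threshold, and for counts of calls a number close to the main one. The 7 genes called between regions in microglia-gated cells and the 10 called between states (Fabp3 not tested by clusters) had the same direction in every alternative, and each of the former but Apoc4 passed in all of them. Calls within a state did not hold up as well. The cause of the changes below was not tested.

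Genes called between regions in microglia-gated cells numbered 1693, and 3718 with the set number as a replicate block. In homeostatic-gated cells 53 became 114 with DESeq2, 242 without a filter, 598 by clusters, 366 with the block and 85 with states gated after thinning. In DAM-gated cells 202 became 563 without a filter, 129 without the deepest cells and 52 without both sets numbered 1. For the difference between regions in the change of state, 16 became 29 with DESeq2, 78 without a filter, 79 by clusters and 25 after thinning. Of the 10 genes, 1 called higher in homeostatic-gated cells became 2 without a filter, 3 by clusters, 2 with the block and 0 after thinning, and 0 called lower became 1 without a filter and 1 with the block. In DAM-gated cells 1 called higher became 2 without a filter, 2 with the block, and 0 with DESeq2, with the stricter gate, after thinning or without both sets numbered 1. After thinning 2 were lower there (Abca1 and Abcg1). For the difference in change, 0 called lower became 3 without a filter, 3 by clusters, 2 with the stricter gate and 1 after thinning.

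The set numbers gave correlations of deviations of 0.467, 0.132, 0.456 and 0.0894 between same-numbered sets, each highest with its own number. With 1 pair under 0.1 and no label that ties a number to a mouse, the numbers were not taken as pairing. Whether same-numbered sets share a mouse is not known, and the block is a hint from the data. The block added Apoe to the calls in microglia-gated cells.

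Signs turned, in log2 fold changes that did not pass the test, as follows. In microglia-gated cells Abcg1 (-0.07) was 0.094 without both sets numbered 1. In DAM-gated cells Apoc1 (-0.01) was 0.037 without a filter, 0.41 by clusters and 0.17 without both sets numbered 1, Fabp5 (-0.07) was 0.069 at a mitochondrial limit of 5% and 0.24 without the deepest cells, Apoe (0.07) was -0.33 with the stricter gate and -0.25 after thinning, Apoc4 (0.18) was -0.48 and -0.16 in these, and Plin2 (0.29) was -0.042 after thinning. For the difference in change, Abca1 (0.06) was -0.0039 at the 5% limit, -0.17 after thinning and -0.00301 by library totals, Abcg1 (0.19) was -0.12 after thinning, Ch25h (0.08) was -0.26 at the 5% limit, -1.35 by clusters, -0.17 with the stricter gate and -0.40 after thinning, and Plin2 (0.11) was -0.13, -0.10 and -0.26 in the last 3.

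Leaving out each set in turn gave 711 to 2939 genes called in microglia-gated, 21 to 382 in homeostatic-gated and 60 to 266 in DAM-gated cells, and 8 to 102 for the difference in change. Of the 10 genes, 0 to 4 were higher in homeostatic-gated and 0 to 1 in DAM-gated cells, and 0 to 5 had the smaller change in the thalamus. Without 1 set the log2 fold changes ran from -0.22 to 0.044 for Abca1 and -0.21 to 0.23 for Abcg1 in microglia-gated cells, -0.29 to 1.31 for Apoe in homeostatic-gated cells, and -0.26 to 0.22 for Apoc1, -0.045 to 0.21 for Apoe and -0.17 to 0.079 for Fabp5 in DAM-gated cells. For the difference in change they ran from -0.10 to 0.15 for Abca1, -0.032 to 0.29 for Abcg1, -1.001 to 0.64 for Ch25h, -0.86 to 0.29 for Fabp3 and -0.052 to 0.22 for Plin2. The difference in the share of cells with Abcg1 ran from -4.04 to 1.40 points, and 0 to 7 of the 10 shares passed, 0 whichever HPC set was left out and 6 or 7 without 1 thalamus set. With a set left out the permutation test has fewer assignments, so a lost call need not be a lost difference. Without HPC set 1 every thalamus share of Abca1 was still below every HPC share, at an adjusted p of 0.0635 (exact permutation test). Fabp3, Ch25h and Apoc4 had under 40 UMIs each in homeostatic-gated cells, and HPC set 3 had 28 DAM-gated cells, which limit those values.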

Other observations

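Cells that passed no gate (967, not named as a type) held much of some genes, with Fabp5 at 7.81 ± 4.65 UMIs per 10000 (SD, n = 8 sets) against 3.42 ± 0.533 in DAM-gated cells, Apoe at 309 ± 160 and Plin2 at 1.72 ± 1.38. The few dendritic cells (77) had pooled Fabp5 levels of 7.37 in the thalamus and 4.23 in the HPC, and border macrophages 7.17 and 0.662, with no set of 20 cells. These values entered no comparison.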
